A study of Homo sapiens with 2 samples.

Results

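Chromosomes 18 and 19 carried 1070 of the 23612 accessible regions listed for GM12878, 547 on chromosome 18 and 523 on chromosome 19. A region was taken by the name of its chromosome, with no threshold on its width, score or spacing. GM12878 is an untreated human lymphoblastoid line, whose B lymphocytes were immortalised by the Epstein-Barr virus that they still carry. Open chromatin was measured by ATAC-seq, in which a transposase cuts exposed DNA and inserts sequencing adapters. There were 2 libraries from separate cultures, each of 50000 cells, in 1 group. The deposited table is 1 list for both, with a start, an end and a score for each region in hg19. It holds no value per library, so the depth is unknown and no difference could be set against the spread between cultures. No gene of hg19 was assigned to a region, so the B-cell label was not checked against marker genes.

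Human chromosomes 18 and 19 are a textbook pair for how genes are arranged in the nucleus. Chromosome 19 is packed with genes, many of them housekeeping genes with CpG-island promoters, and lies towards the centre of the nucleus, while gene-poor chromosome 18 lies towards its edge. Chromosome 19 also holds large tandem clusters of KRAB zinc-finger genes, which encode repressors that recruit TRIM28 to transposable elements. The bodies of these genes are known to carry the heterochromatin mark H3K9me3 in many cell types, while many of their promoters stay active. ATAC-seq regions mark both promoters and distal enhancers, and the list does not tell them apart.

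The gene-rich chromosome held fewer regions than the gene-poor one. By name, the RefSeq table of GRCh38.p14 places 1451 protein-coding genes on chromosome 19 and 270 on chromosome 18. That came to 0.360 regions per protein-coding gene on chromosome 19 and 2.03 on chromosome 18. Among chromosomes 1 to 22 and X, chromosome 19 ranked 22 of 23 in this quotient, above chromosome 22 with 0.337, and chromosome 18 ranked 3 of 23. The quotient counts distal regions as well as promoters and is a description of the list. The lengths of the pair differ, at 59.1 Mb for chromosome 19 and 78.1 Mb for chromosome 18, so every density below is per Mb.

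Per Mb, chromosome 19 was the denser of the pair, and by far less than the gene counts differ. Outside the centromeric bands it held 9.48 regions per Mb (521 regions in 54.9 Mb) and chromosome 18 held 7.32 (545 regions in 74.5 Mb). The ratio was 1.30 (95% exact binomial interval of the split of regions, 1.15 to 1.46). This interval and the others below cover counting error only, and since regions lie in groups they are too narrow. Accessible regions covered 0.848% of the sequence outside the centromere of chromosome 19 and 0.659% of that of chromosome 18. Both arms of chromosome 19 were alike, with 9.39 regions per Mb on the short and 9.56 on the long arm. On chromosome 18 the short arm held 6.04 and the long arm 7.65 per Mb.

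The difference stayed when Giemsa stain was matched. Light bands, which are known to be gene-rich and early replicating, held 9.95 regions per Mb on chromosome 19 and 8.03 on chromosome 18, a ratio of 1.24 (interval 1.04 to 1.48). In the palest of the dark bands the values were 10.8 and 6.91 per Mb, a ratio of 1.56 (1.14 to 2.17). Chromosome 19 has no darker bands than these. The darkest bands of chromosome 18 held 4.81 regions per Mb in 12.9 Mb, and its bands of intermediate stain held 8.14 and 7.65. The variable heterochromatic bands next to the centromere of chromosome 19 held 4.39 regions per Mb in 8.2 Mb.

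The chromosomes also differed in how evenly regions lay along them. In 1-Mb bins outside the centromeric bands, chromosome 19 had a median of 10 regions (95% order-statistic interval 8 to 11, 54 bins), with quartiles at 6.25 and 12 and a range of 0 to 22. Chromosome 18 had a median of 7.5 (5 to 8, 74 bins), with quartiles at 2 and 11.5 and a range of 0 to 25. The medians differed by 2.5 regions (interval 0.438 to 5.19), and in 2-Mb bins by 1.25 per Mb with an interval that includes 0 (-1.76 to 5.07). The upper quartiles were close, and the lower quartiles were far apart. Of the bins of chromosome 19, 37 of 54 (68.5%) lay above the median of chromosome 18, and 19 of 74 bins of chromosome 18 (25.7%) lay above the median of chromosome 19. The ranges overlapped over almost their whole extent.

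Sparse bins made the difference at the low end. Bins with 0 to 2 regions made up 22.8% of all 1-Mb bins of chromosomes 1 to 22 and X. They numbered 20 of 74 (27.0%) on chromosome 18 and 5 of 54 (9.26%) on chromosome 19, where 2 were empty against 5 on chromosome 18. Dense bins, with 15 or more regions, made up 15.3% of all bins, 10 of 74 (13.5%) on chromosome 18 and 6 of 54 (11.1%) on chromosome 19. Between these, 42 of 54 bins of chromosome 19 (77.8%) held 4 to 14 regions, against 37 of 74 (50%) on chromosome 18.

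**Figure D1:**
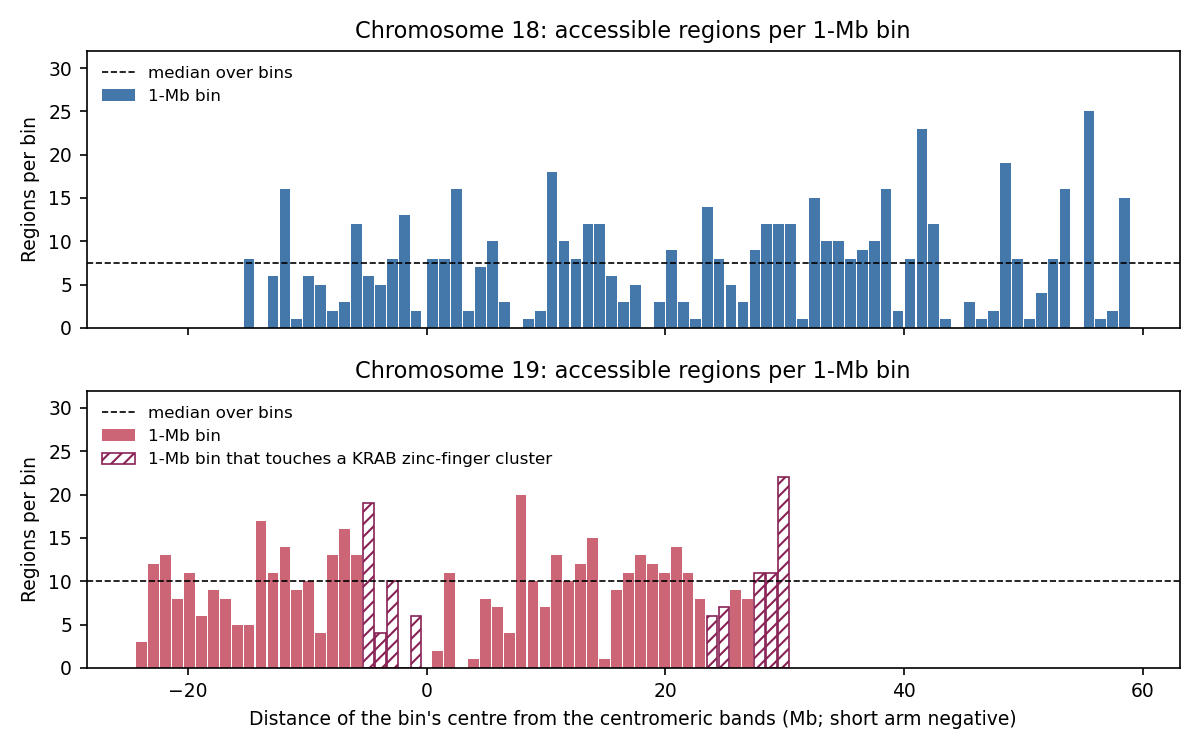
Accessible regions in each 1-Mb bin of chromosome 18 (top) and chromosome 19 (bottom), placed by the distance of the bin's centre from the centromeric bands in Mb, with the short arm on the left; each bar is 1 bin, hatched bars touch a KRAB zinc-finger cluster, and the dashed line is the median over bins (7.5 and 10). On chromosome 18, 37 of 74 bars lie between 4 and 14 and 20 at 0 to 2, with a highest bar of 25, while on chromosome 19 42 of 54 lie between 4 and 14.

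The variance of the count per bin was 4.58 times its mean on chromosome 18 and 2.49 times on chromosome 19, where independent placement at an even rate would give a quotient near unity. Chromosome 19 had the lowest quotient of the 23 chromosomes, whose median was 4.74 and highest value 7.66, on chromosome 21. Chromosome 18 ranked 13 of 23. Leaving out the variable bands and acrocentric stalks, which weigh on several chromosomes, put chromosome 19 at 1.85 over 46 bins, again the lowest, and left 1 of these bins with 0 to 2 regions. Neighbouring bins of either chromosome were hardly correlated, with a Pearson r of -0.06 on chromosome 18 and 0.08 on chromosome 19 against a median of 0.23 over chromosomes. These are correlations across bins, which are not replicates. At this scale the count in a bin said little of the count in the next.

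**Figure D2:**
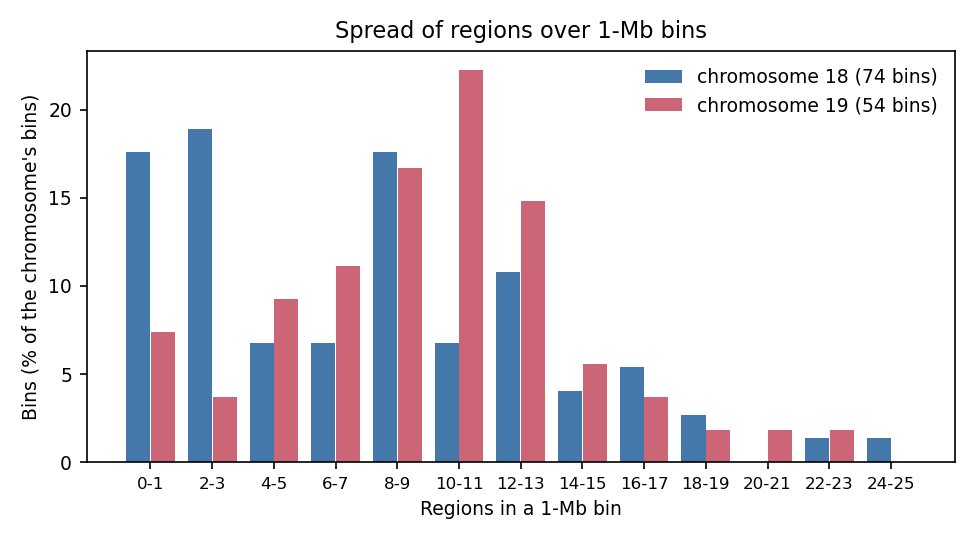
Share of 1-Mb bins (vertical axis, percent of the chromosome's bins) by the number of regions they hold (horizontal axis, steps of 2), for the 74 bins of chromosome 18 in blue and the 54 of chromosome 19 in red. Chromosome 18 has many bins at the low end and a longer tail, and chromosome 19 peaks at 10 to 11 regions.

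The densest bins of chromosome 18 lay on its distal long arm. The bin at 74000001 to 75000000 in 18q23 held 25 regions, and the bins on either side of it held 0 and 1. Band 18q23 is known to hold NFATC1, a calcium-regulated transcription factor of lymphocytes. The bin at 60000001 to 61000000 in 18q21.33 held 23 regions, and the bin at 67000001 to 68000000 in 18q22.2 held 19. Band 18q21.33 is known to hold BCL2, which protects B cells from apoptosis, beside a cluster of SERPINB protease inhibitor genes. These genes are background to the bands, which hold many others, and no gene was placed inside a bin.

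On chromosome 19 the densest bin held 22 regions (58000001 to 59000000, in 19q13.43) and mostly fell in the outermost zinc-finger cluster. The next held 20 regions (36000001 to 37000000, in 19q13.12), in the band of CD22, an inhibitory co-receptor of the B-cell receptor. The third held 19 (19000001 to 20000000, in 19p13.11) and reached 0.2 Mb into the innermost zinc-finger cluster. Band 19p13.11 is known to hold MEF2B, a transcription factor of germinal centre B cells, the AP-1 subunit gene JUND and the cytokine receptor gene IL12RB1. These genes too are background to their bands, which reach into further bins, and no gene was placed inside a bin. In 19q13.12, the bin at 35000001 to 36000000 held 4 regions and that at 37000001 to 38000000 held 10.

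By band, densities ran wider on chromosome 18 than on chromosome 19. Over the 18 non-centromeric bands of at least 1 Mb on chromosome 18, they ran from 1.43 per Mb in 18p11.23 to 14.6 in 18q21.33, with a median of 7.07, and 4 bands had 10 per Mb or more. Over the 15 such bands of chromosome 19 they ran from 3.42 in 19q12 to 15.7 in 19p13.11, with a median of 9.57, and 7 had 10 per Mb or more. After 18q21.33, the densest band of chromosome 18 was 18q22.2, with 14.2 per Mb and none of the genes listed for comparison. Bands that hold genes of lymphocyte biology varied, with 10.4 per Mb in 18q21.2, 10 in 18q21.32, 8.64 in 18q23 (NFATC1) and 6.89 in 18p11.21, which holds the lymphocyte phosphatase gene PTPN2. Band 18q21.2 holds TCF4, an E protein that drives immunoglobulin genes. Band 18q21.32 holds MALT1, a protease that relays antigen-receptor signals to NF-kB, and PMAIP1, a pro-apoptotic BCL2 family gene.

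The other bands of chromosome 18 with genes listed for comparison held 4.48 to 8.5 per Mb. Band 18q12.1, with the cadherin gene CDH2 and the desmoglein genes, held 6.49 per Mb, and 18q12.3, with SETBP1, held 5.24. Band 18q11.2, with the endoderm factor gene GATA6, held 8.5, above the chromosome's average of 7.32 and above 18p11.21. Band 18q21.1, with the TGF-beta pathway genes SMAD2 and SMAD7, held 7.23. The tip of the short arm, 18p11.32, with TYMS and YES1, held 4.48, and 18p11.31, with LAMA1, held 6.90. Each band holds many other genes, and a link between band density and the tissue of these genes was not tested.

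On chromosome 19, the band of the NF-kB genes RELB and BCL3 (19q13.32) held 12.5 regions per Mb. Band 19q13.12, with CD22, held 11.8, and 19q13.2, with the B-cell receptor gene CD79A and the octamer factor gene POU2F2, held 11.28. Band 19q13.33, with the B-cell surface gene CD37 and the ETS factor gene SPIB, held 11.18. Band 19q13.42, with the LILR receptor genes, held 10.4. The short arm's 19p13.2, with ICAM1 and FCER2, held 9.57, and 19p13.3, with the E protein gene TCF3 and VAV1, held 8.99. The last lay below the 9.48 of chromosome 19 as a whole, and 19p13.2 was at the median of its bands.

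The lack of sparse stretches also showed in the longest intervals without a region. On chromosome 18, 33 of 543 distances between neighbouring regions exceeded 500 kb, or 6.08%, and 14 exceeded 1 Mb. On chromosome 19 these were 13 of 519, or 2.50%, and 3. The share over 500 kb on chromosome 19 was the lowest among chromosomes 1 to 22 and X. Chromosomes 15, 17, 20, 22 and X had higher shares than chromosome 18, up to 11.6% on chromosome 22. The longest on chromosome 18 was 2.72 Mb in 18q22.1 (62047732 to 64771926), one of its darkest bands. The next were 1.796 Mb centred in 18q12.3 (36521824 to 38318212) and 1.76 Mb in the light band 18p11.32 (813102 to 2570777). On chromosome 19 the longest ran for 2.39 Mb from 19q12 into 19q13.11 (30508438 to 32896060). The second, of 1.48 Mb, lay inside the innermost zinc-finger cluster (21950684 to 23432760), and the third, of 1.04 Mb, was centred in 19q13.31 (42928259 to 43967355). No region number was skipped across any of these 6 intervals. With the depth unknown, an interval without a region is not shown to be closed.

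Close neighbours were more frequent on chromosome 18 than on chromosome 19, although most regions of both stood alone. To the next region the median distance was 50.5 kb on chromosome 19 (order-statistic interval 43.6 to 57.02) and 42.2 kb on chromosome 18 (35.1 to 51.5). It was therefore longer on the denser chromosome, by a ratio of 1.20 whose interval (0.934 to 1.49) includes equality. The lower quartiles were 20.3 and 11.6 kb and the upper quartiles 120 and 138 kb, so the distances of chromosome 18 lay further out at both ends. The median was 0.497 times the mean distance on chromosome 19 and 0.317 times on chromosome 18.

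Over chromosomes 1 to 22 and X, 37.3% of regions had a neighbour within 10 kb. On chromosome 18 it was 213 of 547, or 38.9% (95% Clopper-Pearson interval 34.8 to 43.2), near that background. On chromosome 19 it was 123 of 523, or 23.5% (19.9 to 27.4), a difference of -15.4 percentage points from chromosome 18 (interval -21 to -9.77). Chromosome 19 ranked 21 of 23, above chromosomes 17 (22.8%) and 22 (21.7%), which are also known to be gene-rich. Its low share is therefore not particular to it. Unlike chromosome 19, those chromosomes were sparse, with 6.37 and 3.22 regions per Mb.

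Joining regions at 10 kb gave 4 groups of 5 or 6 regions on chromosome 18 and none of that size on chromosome 19, where 2 groups of 4 were the largest. Chromosomes 17, 20 and 22 also had no group of 5 or more, so this lack is not particular to chromosome 19. The highest count, not set per length, was 16, on chromosomes 2 and 8. The groups of 6 lay in 18q21.1 (47807658 to 47842301), in 18q21.2 (51773384 to 51796927) and in 18q22.2 (67602544 to 67627342), over 34.6, 23.5 and 24.8 kb. The groups of 4 on chromosome 19 lay in 19p13.2 (10206606 to 10217276) over 10.7 kb and in 19q13.12 (36231298 to 36249625) over 18.3 kb. A group of 3 in 19p13.11 (19772573 to 19780008) followed. Regions without a neighbour numbered 400 on chromosome 19 and 334 on chromosome 18.

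**Figure D3:**
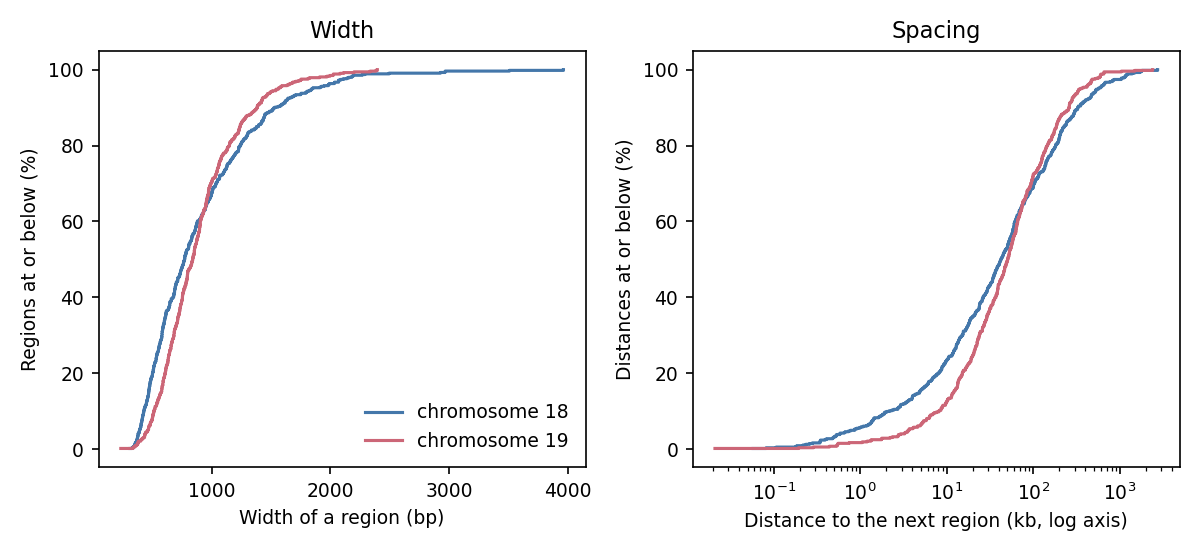
Cumulative share of regions by width in bp (left) and of distances to the next region in kb on a log axis (right) for chromosome 18 (blue) and chromosome 19 (red); distances across or inside the centromeric bands are left out. In both panels the curve of chromosome 19 is steeper and the curves cross, since chromosome 18 has more narrow and more broad regions, and more short and more long distances.

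Widths were also more uniform on chromosome 19 than on chromosome 18. The median width was 839 bp on chromosome 19 (order-statistic interval 794 to 870) and 770 bp on chromosome 18 (730 to 817), a difference of 69 bp (interval 3.93 to 120). Chromosome 19 had the highest median of the 23 chromosomes, against 756 bp over all regions on them. The means were 895 and 902 bp, so the higher median of chromosome 19 went with a lower mean. The quartiles were 641.5 and 1060.5 bp on chromosome 19 and 538.5 and 1131.5 bp on chromosome 18. The range between quartiles, 419 and 593 bp, was the narrowest of the 23 chromosomes for chromosome 19 and the widest for chromosome 18. Chromosome 5 came close to the latter, at 587.5 bp. By standard deviation neither was extreme. Chromosome 19 had 354 bp, above chromosome 22 (295 bp). Chromosome 18 had 493 bp, below chromosomes 4, 5, 6, 13 and 21 (494 to 528 bp).

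Narrow regions were scarce on chromosome 19. Regions under 500 bp made up 17.9% of those on chromosomes 1 to 22 and X, 108 of 547 (19.7%) on chromosome 18 and 43 of 523 (8.22%) on chromosome 19, the lowest share of the 23. Broad regions were scarce too. Those of 2 kb or wider made up 3.26% of all, 20 (3.66%) on chromosome 18 and 8 (1.53%) on chromosome 19, which ranked 20 of 23. The difference of 2.13 percentage points had an interval of 0.0963 to 4.25, and without the zinc-finger clusters it was 1.90 with an interval that includes 0 (-0.292 to 4.07).

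The widest region of the pair spanned 3963 bp in 18q21.33 (chromosome 18, 60826048 to 60830010), the band of BCL2, inside the bin with 23 regions. It was followed by 3508 bp in 18q21.2 (48721521 to 48725028), the band of TCF4 and DCC, and 2967 bp in 18p11.31 (5294181 to 5297147). These genes are background to their bands, and none was assigned to a region. On chromosome 19 the widest spanned 2395 bp (56164749 to 56167143) and the third widest 2334 bp (54693005 to 54695338), both in 19q13.42. The second spanned 2383 bp in 19p13.3 (2475143 to 2477525). That band is also known to hold GADD45B, a stress gene induced by NF-kB, which was singled out after the position was seen and was not assigned to the region. Of the 28 regions of 2 kb or wider on the pair, 28 had the highest score.

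The score is a whole number from 541 to 1000 whose scale no header or label names. The list's name carries the term IDR, a measure of agreement between replicates. Whether the score is that measure is not stated, and the score is used here to class regions within the list. The highest score, 1000, was held by 59.9% of regions on chromosomes 1 to 22 and X. On chromosome 19 it was 325 of 523, or 62.1% (Clopper-Pearson interval 57.8 to 66.3), and on chromosome 18 it was 329 of 547, or 60.1% (55.9 to 64.3). The difference of 2 percentage points had an interval from -3.98 to 7.94. Below the highest score, the median score was 724 on chromosome 19 and 728.5 on chromosome 18. Both shares were near the background, and the interval of their difference includes 0.

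The difference in width lay among the lower-scoring regions. Below the highest score the median width was 653 bp on chromosome 19 (198 regions) and 549 bp on chromosome 18 (218 regions), a difference of 104 bp (interval 56.6 to 153). At the highest score chromosome 19 was the narrower, at 960 bp (325 regions) against 998 bp (329 regions), and the interval of this difference of -38 bp ran from -114 to 30.03. The step in median width from lower to highest score was 449 bp on chromosome 18, the largest of the 23 chromosomes, and 307 bp on chromosome 19, the second smallest.

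Grouped regions were the wider ones on chromosome 18 and not on chromosome 19. Regions with a neighbour within 10 kb had a median width of 861 bp on chromosome 18 (interval 760 to 936) and those without one 713 bp (678 to 776). On chromosome 19 the medians were 838 bp (730 to 875) and 841 bp (794 to 887). Lone regions were thus 128 bp wider on chromosome 19 than on chromosome 18 (interval 49.4 to 186), while grouped ones differed by -23 bp (interval -154 to 84.6). On chromosome 18, 66.2% of grouped and 56.3% of lone regions had the highest score, and on chromosome 19 57.7% and 63.5%.

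**Figure D4:**
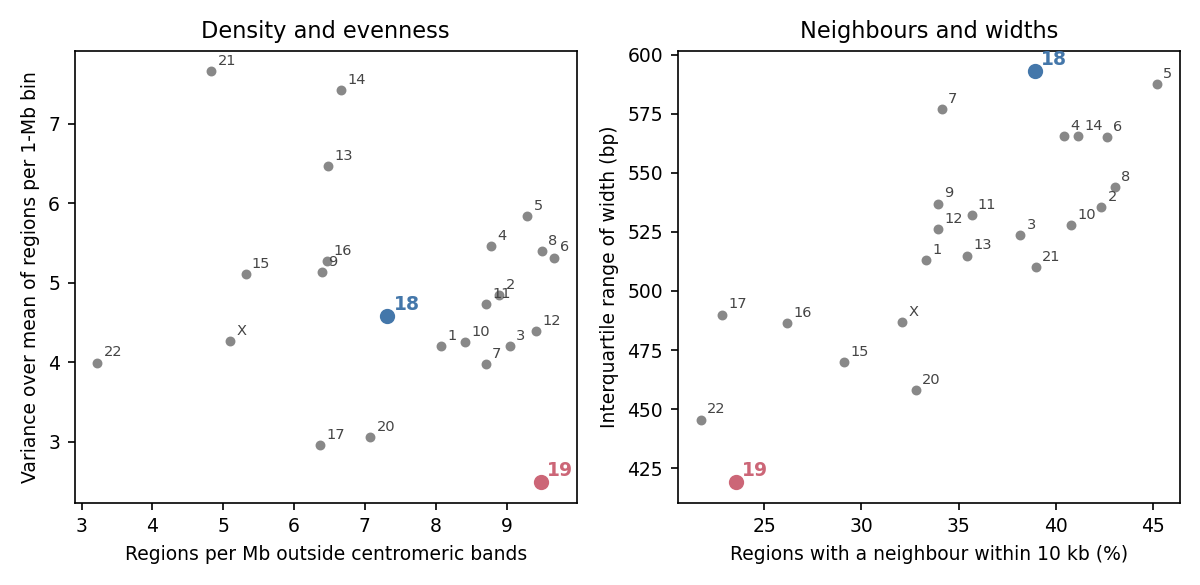
Each point is 1 of chromosomes 1 to 22 and X. The left panel sets regions per Mb against the variance over the mean of regions per 1-Mb bin, and the right panel sets the share of regions with a neighbour within 10 kb against the interquartile range of width in bp. Chromosome 19 (red) has the lowest variance over mean (2.49) at a high density. Its interquartile range of width (419 bp) is the narrowest, and that of chromosome 18 (blue, 593 bp) is the widest.

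The 3 KRAB zinc-finger clusters taken on chromosome 19 lie at 19.8 to 24.4 Mb (mostly 19p12), 52.4 to 54.0 Mb (19q13.41 and 19q13.42) and 56.2 to 58.9 Mb (mostly 19q13.43). Of the protein-coding symbols of chromosome 19 in the RefSeq table, 265 have a zinc-finger stem (ZNF, ZFP, ZSCAN, ZIM or ZIK), against 10 on chromosome 18. Other zinc-finger clusters of chromosome 19, such as those known in 19p13.2, 19q13.12 and 19q13.31, stay in the rest. Accessible regions were listed in each of the 3 clusters. Together they held 68 regions in 8.9 Mb, or 7.64 per Mb, against 453 regions in 46.03 Mb, or 9.84 per Mb, in the rest outside the centromere. The ratio was 0.776 (exact binomial interval 0.593 to 1.004), and it depended on the bounds, as a widening by 0.2 Mb at each end took it to 1.05. The clusters were about as dense as chromosome 18.

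Within the clusters, a smaller share of regions had a close neighbour than in the rest. A neighbour within 10 kb was found for 8 of 68 regions, or 11.8% (5.22 to 21.9), against 115 of 453, or 25.4% (21.4 to 29.7), in the rest, a difference of -13.6 percentage points (interval -21.4 to -2.77). The median distance to the next region was 51.004 kb inside and 49.97 kb outside. The widest of the 68 spanned 1563 bp, and 0 of 68 were 2 kb or wider (Clopper-Pearson interval 0 to 5.28%), which does not set them apart from the 8 of 453 in the rest (1.77%). The median width was 829.5 bp inside (745 to 901) and 841 bp outside (792 to 877), a difference of -11.5 bp (interval -103 to 75.2). The highest score was held by 41 of 68 regions (60.3%) inside and 283 of 453 (62.5%) outside. Inside the clusters 0 region numbers were skipped. Tandem copies of these genes resemble each other in sequence, and loss of reads that match several copies was not tested. The list's name also points to a filter for mappability, whose effect on these counts was not tested.

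The clusters differed among themselves. The 1 next to the centromere was sparse, with 27 regions in 4.6 Mb or 5.87 per Mb, a ratio of 0.596 to the rest (interval 0.389 to 0.879). The highest score was held by 22 of these 27 (81.5%, Clopper-Pearson interval 61.9 to 93.7), 19.01 points above the rest with an interval of -1.06 to 32.1, and their widths were close together, with quartiles at 797 and 1050.5 bp around a median of 901. Regions lay 91.8 kb apart in the median (42.6 to 146). The side away from the centromere held 18 regions and the side next to it 9. Between them lay the empty 1.48 Mb described above. The widest of this cluster spanned 1254 bp (24215795 to 24217048).

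The cluster at 52.4 to 54.0 Mb held 11 regions in 1.6 Mb, or 6.88 per Mb (ratio 0.699, interval 0.346 to 1.26). Of these, 3 had the highest score, or 27.3% (6.02 to 61.0), a difference of -35.2 points from the rest (interval -56.9 to -1.18), and the cluster also held a region at 541, the lowest score of the whole list. None of the 11 had a neighbour within 10 kb, and the median distance was 74.4 kb. A stretch of 517 kb without a region (52773221 to 53289858) separated 4 regions from the other 7. The widest, of 1325 bp, lay before this stretch (52692513 to 52693837). With 11 regions, these shares are loose descriptions.

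The outermost cluster, at 56.2 to 58.9 Mb, was as dense as the rest of the chromosome, with 30 regions in 2.7 Mb or 11.1 per Mb (ratio 1.13, interval 0.753 to 1.63). Its regions were unevenly placed. The side nearer the centromere held 4 and the side nearer the telomere 26, and a stretch of 595 kb (57107232 to 57702603) held none. Directly after it, the 0.5 Mb from 57700001 to 58200000 held 15 regions, as many as all the rest of the cluster. These 15 were 9.63 to 66.0 kb apart with a median of 34.3 kb. They had a median width of 588 bp, 11 of them were under 750 bp wide, and 7 had the highest score. The other 15 regions of the cluster had a median width of 831 bp, and 9 of them had the highest score. The widest of the cluster spanned 1563 bp (56825462 to 56827024). This 0.5-Mb step was singled out after its count was seen.

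**Figure D5:**
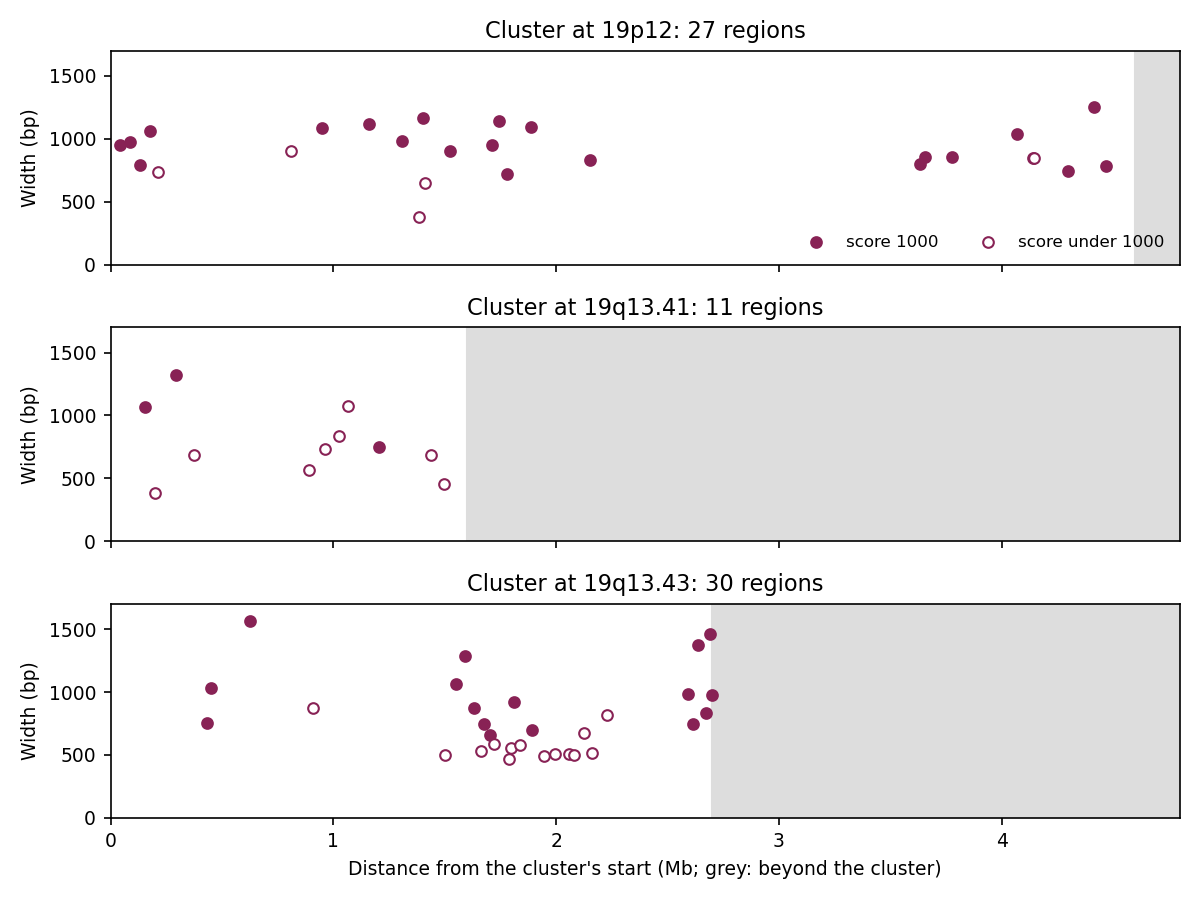
Each point is 1 accessible region in 1 of the 3 KRAB zinc-finger clusters of chromosome 19, by distance from the cluster's start in Mb and by width in bp; filled points have the score 1000 and open points a lower one, and grey marks what lies beyond a cluster. The top cluster is sparse with mostly filled points, 1 of them hidden under an open point near its right end, the middle has 3 filled of 11, and the bottom has a run of 15 regions after an empty stretch.

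Margins of 2 of the 3 clusters held many regions. The 0.2 Mb before the outermost cluster held 8 regions and the first 0.2 Mb inside it 0. Beyond its end, the last 229 kb of the chromosome held 14 regions, of which 8 had the highest score. Before the cluster next to the centromere, 0.2 Mb held 6 regions, while the 0.2 Mb after it, in a centromeric band, held 0. The 0.2 Mb on either side of the cluster at 52.4 to 54.0 Mb held 1 region each, against 2 in the 0.2 Mb just inside each end. Flanks of the 3 clusters, 7.78 Mb in all, drawn outside the centromeric bands and including part of 19q12, held 12.34 regions per Mb, above both the clusters and the rest of chromosome 19. In these flanks 37.5% of regions had a neighbour within 10 kb. The variable band 19q12, across the centromere from the innermost cluster and not part of any, held 3.42 regions per Mb. There, 9 of 13 regions (69.2%, Clopper-Pearson interval 38.6 to 90.9) had a neighbour within 10 kb, and the median width was 545 bp, with an interval (433 to 953) that overlaps that of the innermost cluster (800 to 1039).

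The last 5 Mb at each chromosome end also differed. On chromosome 19 they held 9.4 regions per Mb on the short and 13.6 on the long arm, the latter with a median distance of 22.3 kb. On chromosome 18 they held 6.2 and 8.6 per Mb. On chromosome 19, the long-arm end includes the whole outermost zinc-finger cluster (30 regions) and the 14 regions beyond it, both described above. At the ends of the short arms, 70.2% of regions on chromosome 19 and 74.2% on chromosome 18 had the highest score, with intervals of 55.1 to 82.7 and 55.4 to 88.1 that include the background.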

How the data were processed

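ATAC-seq was run on 2 cultures of GM12878, which form 1 group. The authors' deposited file is a single headerless list with a start, an end and a score for each region. Per the submitters' processing notes, MACS2 2.1.0, BWA 0.7.13, bedtools 2.24.0, Trim Galore 0.3.3, SAMtools 0.1.19, CASAVA 1.8.4, Picard 1.92 and the build hg19 were used, without stated roles. Besides IDR, the list's name carries the terms Mapp, Mito and Black, read here as filters for mappability, mitochondrial sequence and blacklisted sequence. How these were applied is not stated. Whether reads were shifted for the transposase, and how reads with several matches were treated, are not given in the sources used here. Depth per library is unknown.

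Regions were placed by midpoint, and widths are end minus start. Bands and lengths of hg19 came from circlize 0.4.16 (R 4.3.3). Full 1-Mb bins clear of centromeric bands were used, and distances that touch or span these bands were left out of spacing. Medians carry 95% order-statistic intervals from binomial ranks, shares Clopper-Pearson intervals, and differences of either a square-and-add combination. No test was made, since regions are not replicates. Bounds of the zinc-finger clusters were given as rounded values. Gene counts per chromosome use names in the RefSeq table of GRCh38.p14, with no coordinates. No region sequence was used here.

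The members, bands and lists were chosen with earlier results of these data known. The rule for named items took the 3 widest regions, fullest bins, longest distances and largest groups per chromosome, the widest region per zinc-finger cluster, and genes as background to bands. Calculations used Python 3.11.15, numpy 2.4.6, pandas 2.3.3, scipy 1.17.1 and matplotlib 3.10.9, and were tested on simulated data.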

Additional observations from a re-analysis of the deposited data

Results flagged for a closer look

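Outside the assembled chromosomes compared, the unlocalised sequence 19_gl000208_random carried 4 listed regions. The build hg19 ties this sequence to chromosome 19 without a position, and the 4 regions were left out of the comparison. Of these, 3 had the highest score and 1 had a score of 735. The widest spanned 2355 bp (89576 to 91930), about as wide as the widest regions of chromosome 19 itself. No region was listed on unlocalised sequences of chromosome 18. The lengths of the unlocalised sequences were not compared, so these counts are no contrast between the chromosomes.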

How the results depend on the processing

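Of 48 alternatives over 12 results, 41 kept the direction and stayed within the interval of the value (for the variance, within 1.5 times), 2 moved it and 5 reversed it, and 37 were planned and 11 chosen after seeing the data. The density ratio of chromosome 19 over 18 ran from 1.24 in light bands to 1.42 without variable bands, the ratio of variance to mean of chromosome 18 over 19 from 1.74 in 2-Mb bins to 2.19 in shifted bins, the difference in median regions per bin from 1.25 per Mb in 2-Mb bins to 3, and the difference in neighbours from -19.9 to -11.7 percentage points. The difference in median width reversed to -38 bp among regions at the highest score, and the difference in share at the highest score reversed to -2.64 points among regions of at least 500 bp. At 1.5 kb in place of 2 kb, the difference in broad regions was 5.23 points, and the cause was not tested. It was 1.90 without the clusters, with an interval of -0.292 to 4.07. Widening the zinc-finger clusters by 0.2 Mb at each end reversed their density ratio to 1.05, with 30 regions then moved inside. Shrinking them by as much gave 0.680. Set against the flanks alone the ratio was 0.619, and against the rest without 19q12 it was 0.733. Their difference in share at the highest score was -16.1 points without the cluster at 19p12, and reversed to 4.19 without that at 19q13.41 and to 3.32 without that at 19q13.43, so it rests on single clusters. The flanks came to 7.78 Mb and not the planned 8.9 Mb, since the chromosome ends inside 1 of them. No paired analysis was possible because both cultures share a single table without separate values, and for that reason no replicate could be left out.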
